A study of Homo sapiens with 12 samples.

Results

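The genes described are 8 genes of the extracellular matrix and of its remodelling: CTGF, CYR61, TGFBI, COL8A1, LOXL2, SERPINE2, TIMP3 and SULF2. They were taken by symbol from a table of 57773 gene entries, in which each of the 8 had 1 entry, and they had been chosen by their fold changes between the groups of these same libraries. All 8 passed the filter on low counts, which left 15715 entries for testing. Because the choice used the changes themselves, levels and differences of the 8 genes are given as a description and support no test.

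PEO1 is an established ovarian cancer cell line, and its poly(A) RNA was sequenced to ask how knockdown of p53 alters estrogen receptor activity and the answer to an endocrine drug. PEO1 cells carried pLKO.1, a lentiviral vector that serves as control, or shp53, a short hairpin RNA against p53, and all were kept in RPMI-1640 with 10% serum and 2 μg/mL puromycin. Each line was sampled untreated, under the label 0 h, and after 48 h with 10 μM fulvestrant, a drug that binds the estrogen receptor and leads to its degradation, with 3 libraries in each of the 4 groups. The treatment protocol names 100 pM estradiol together with fulvestrant, and leaves unsaid whether the untreated cells were given estradiol. Fulvestrant, 48 h in culture and any difference in estradiol therefore cannot be told apart. The labels name 1 hairpin line, so an effect of p53 loss and any other effect of that hairpin or of selecting that line cannot be told apart either. No label says whether the 3 libraries of a group are separate cultures. The p-values then measure no more than the spread among these libraries, and that spread may be technical.

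The libraries held 21581887 to 28481541 counts each. Levels are given as CPM, the count scaled to a common library size. Of 18 epithelial and ovarian markers 15 reached a mean of 1 CPM, among them EPCAM (367 to 453 CPM), KRT8 (1154 to 2426 CPM) and PAX8 (69.8 to 137 CPM), while SOX17 was at 0 in every library and FOLR1 had at most 2 counts. The fibroblast genes COL3A1, LUM and POSTN, the endothelial genes CLDN5 and EMCN and the mesothelial gene ITLN1 had 0 counts in all 12 libraries. Other genes of those lists were present: of the fibroblast list THY1 (80.7 to 247 CPM), FBLN1 (24.9 to 81.7), FAP (3.49 to 10.7), COL1A1 (1.40 to 7.23) and ACTA2 (1.23 to 3.81), and of the endothelial and mesothelial list UPK3B (11.1 to 42.6), CALB2 (7.73 to 26.8) and CDH5 (4.88 to 9.78). In 1 library of each group GC-rich genes were low relative to the other libraries: pLKO.1 untreated 1, pLKO.1 fulvestrant 3, shp53 untreated 1 and shp53 fulvestrant 2. Fold changes between the shp53 and pLKO.1 fulvestrant groups had a Spearman correlation of -0.41 with GC content across genes, against -0.31 to -0.15 in the other pairwise comparisons.

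Matricellular proteins are secreted into the extracellular matrix but serve as signals to the cell more than as structure, mostly by binding integrins, heparan sulfate and growth factors. CTGF and CYR61 are the best known of them and are textbook targets of the transcription factor TEAD with its coactivator YAP, and CTGF and TGFBI are also known targets of TGF-beta signalling. Around them act enzymes that cross-link collagen, inhibitors that restrain proteases and enzymes that edit heparan sulfate, and in ovarian cancer this remodelling is studied for its part in adhesion and spread through the peritoneum.

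The upstream sequences of CTGF, SERPINE2 and TGFBI are shown because these are the matrix genes with the highest fulvestrant levels per transcript length among those that RefSeq's promoter table covers, and because the first pair had nearly the same pattern over the libraries. RefSeq (GRCh38.p14) had promoter entries for 5 of the 8 genes, 9 entries in all, and none for CYR61, COL8A1 and LOXL2. Each line gives the 250 bases before the start site, 5′ to 3′ on the strand of the gene. Capitals mark GGAATG, the core of a TEAD site, and TATAAA, the TATA box. CTGF, listed by RefSeq as CCN2, lies at chr6:131951373-131951622 on the minus strand, the first of 2 SERPINE2 entries at chr2:224031479-224031728 on the minus strand and TGFBI at chr5:136028738-136028987 on the plus strand. The second SERPINE2 entry, at chr2:224038641-224038890, is not printed and has a GC content of 75.2%, against 53.2% in the first. Which start these cells use was not measured.
CTGF: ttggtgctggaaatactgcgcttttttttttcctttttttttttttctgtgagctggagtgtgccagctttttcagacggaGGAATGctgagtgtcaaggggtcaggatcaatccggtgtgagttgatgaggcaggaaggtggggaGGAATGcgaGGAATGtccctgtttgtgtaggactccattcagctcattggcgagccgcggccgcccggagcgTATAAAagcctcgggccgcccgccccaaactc
SERPINE2: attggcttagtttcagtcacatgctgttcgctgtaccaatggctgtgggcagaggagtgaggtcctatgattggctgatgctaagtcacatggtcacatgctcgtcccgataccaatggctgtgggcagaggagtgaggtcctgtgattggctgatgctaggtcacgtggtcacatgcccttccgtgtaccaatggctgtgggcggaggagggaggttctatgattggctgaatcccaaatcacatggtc
TGFBI: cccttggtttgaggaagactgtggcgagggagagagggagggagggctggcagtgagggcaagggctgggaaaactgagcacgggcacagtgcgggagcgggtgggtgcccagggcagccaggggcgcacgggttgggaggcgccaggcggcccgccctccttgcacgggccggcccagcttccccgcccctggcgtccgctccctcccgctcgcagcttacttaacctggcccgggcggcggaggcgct
The CTGF sequence held GGAATG at 3 places, with first bases at -169, -104 and -95 from the start, and a TATA box at -32. The search covered windows of 300 bases, 250 before and 50 after the start, and both strands, except for TATAAA, which was read on the sense strand alone. GGAATG occurred in 14.0% of 35116 such windows of the table, and 3 or more times in 45 of them, or 0.128%. TATAAA occurred in 7.33% of windows. CAGAC, the core bound by SMAD proteins, which carry TGF-beta signals, occurred in 45.3% of windows, with 1 match in CTGF at -177, 2 in TIMP3, 3 over the 4 entries of SULF2 and none in TGFBI or in either SERPINE2 entry. GGAATG occurred in none of the other 8 entries of these genes. TGANTCA, the site of AP-1, was in 7.71% of windows, the full palindromic estrogen response element in 0.057% and the p53 half-site in 6.63%, and the 9 entries held no match to any of them. A match is a string of letters and not a measured binding site, and a missing match says only that those letters are not in that window.

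CTGF and CYR61 belong to 1 family of secreted integrin ligands, the CCN proteins, and they moved in opposite directions with fulvestrant. CTGF stood at 11.9, 12.3 and 12.1 CPM in untreated pLKO.1 libraries 1, 2 and 3 and at 36.6, 41.0 and 37.7 CPM after fulvestrant. In shp53 cells it stood at 16.4, 16.2 and 13.4 CPM untreated and at 49.8, 48.8 and 52.2 CPM after fulvestrant. In bulk RNA a change within each cell and a change in the share of cells that express a gene cannot be told apart. All 6 fulvestrant libraries lay above all 6 untreated ones, and within each treatment every shp53 library lay above every pLKO.1 library. The fulvestrant level was 3.18 times the untreated level in pLKO.1 cells, a log2 fold change of 1.67 ± 0.05 (SE from the spread of 3 libraries a group), and 3.28 times in shp53 cells (log2 fold change 1.71 ± 0.10). Both ratios are nearly equal, and the difference of the responses was 0.04 ± 0.11 on the log2 scale. Between the lines CTGF differed by a log2 fold change of 0.34 ± 0.09 untreated and 0.39 ± 0.06 with fulvestrant. The group means, from high to low, were shp53 fulvestrant (50.3 ± 1.73 CPM, SD, n = 3), pLKO.1 fulvestrant (38.4 ± 2.3), shp53 untreated (15.4 ± 1.68) and pLKO.1 untreated (12.1 ± 0.164), and no neighbours in that order overlapped.

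CYR61 was lower with fulvestrant. It stood at 111, 108 and 107 CPM in untreated pLKO.1 libraries and at 65.5, 66.8 and 62.8 CPM after fulvestrant. For shp53 cells the values were 123, 121 and 109 CPM untreated and 68.6, 63.7 and 67.7 CPM after fulvestrant. Treated and untreated libraries did not overlap in either line, while the lines overlapped under both treatments. The level was 1.67-fold lower with fulvestrant in pLKO.1 cells, a log2 fold change of -0.74 ± 0.03, and 1.77-fold lower in shp53 cells, -0.82 ± 0.06. The log2 fold change between the lines was 0.12 ± 0.06 untreated and 0.04 ± 0.04 with fulvestrant. Per kilobase of transcript CYR61 was at 47.4 CPM and CTGF at 5.17 CPM in untreated pLKO.1 cells, while in shp53 cells with fulvestrant the values were 29.1 and 21.5 CPM per kilobase. As group means CYR61 and CTGF stood at 109 and 12.1 CPM in untreated and at 65.0 and 38.4 CPM in treated pLKO.1 cells. In shp53 cells the means were 118 and 15.4 CPM untreated and 66.7 and 50.3 CPM treated. The gap between these family members was thus narrower with fulvestrant in both lines.

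TGFBI encodes a secreted integrin ligand first found as a transcript induced by TGF-beta, and it was the most abundant of the 8 genes per transcript length, at 65.6 CPM per kilobase in untreated pLKO.1 cells and 127 in shp53 cells with fulvestrant. It stood at 317, 306 and 294 CPM in untreated pLKO.1 libraries and at 497, 505 and 495 CPM with fulvestrant. In shp53 cells the values were 269, 274 and 247 CPM untreated and 581, 601 and 589 CPM with fulvestrant. The 4 groups did not overlap, and the lines changed places: shp53 libraries were the lowest without the drug and the highest with it. The log2 fold change with fulvestrant was 0.71 ± 0.03 in pLKO.1 cells (1.63-fold) and 1.16 ± 0.05 in shp53 cells (2.24-fold), a difference of responses of 0.46 ± 0.06. Between the lines it was -0.22 ± 0.06 untreated and 0.24 ± 0.02 with fulvestrant.

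COL8A1 encodes a short-chain collagen found beneath endothelia and in remodelling tissue. Its libraries stood at 10.8, 10.6 and 10.9 CPM in untreated pLKO.1 cells and at 34.0, 33.6 and 34.4 CPM with fulvestrant. The shp53 values were 8.82, 6.37 and 8.89 CPM untreated and 28.3, 29 and 30.3 CPM with fulvestrant. COL8A1 was thus the 1 gene of the 8 that was lower in every shp53 library than in every pLKO.1 library under both treatments. With fulvestrant the log2 fold change was 1.66 ± 0.01 in pLKO.1 cells (3.16-fold) and 1.86 ± 0.16 in shp53 cells (3.63-fold). The SE of 0.01 rests on 3 close values a group, from 240 to 303 and 742 to 809 counts, and may understate the uncertainty. Between the lines it was -0.42 ± 0.16 untreated and -0.22 ± 0.03 with fulvestrant, and library 2 of untreated shp53 cells, at 6.37 CPM, was the lowest of all.

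LOXL2, a copper-dependent enzyme that cross-links collagen and elastin, was higher in shp53 cells, and its treated and untreated libraries overlapped in both lines. The untreated pLKO.1 libraries held 3.95, 4.06 and 4.08 CPM and the treated ones 5.73, 4.07 and 2.97 CPM. In shp53 cells they held 7.66, 9.66 and 8.97 CPM untreated and 10.9, 7.13 and 12.0 CPM with fulvestrant. Every shp53 library was above every pLKO.1 library, whatever the treatment. The log2 fold change between the lines was 1.12 ± 0.10 untreated (2.17-fold) and 1.23 ± 0.35 with fulvestrant (2.35-fold), and that with fulvestrant was 0.08 ± 0.27 in pLKO.1 and 0.19 ± 0.25 in shp53 cells. The lowest library of each treated group was one of the 4 in which GC-rich genes were low, and the LOXL2 transcript has a GC content of 58.2%, above the upper quartile of 55.9% over all tested genes. Without those 4 libraries the log2 fold change between the lines was 1.19 untreated and 1.22 with fulvestrant, and that with fulvestrant was 0.22 in pLKO.1 and 0.25 in shp53 cells. LOXL2 had the fewest counts of the 8 genes, 70 to 256 a library.

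SERPINE2 encodes protease nexin, a secreted inhibitor of thrombin, urokinase and tissue plasminogen activator, and it had the pattern of CTGF at a higher level. Untreated pLKO.1 libraries held 143, 134 and 131 CPM and treated ones 417, 427 and 474 CPM. Untreated shp53 libraries held 169.5, 170.4 and 155 CPM and treated ones 506, 547 and 502 CPM. The 4 groups did not overlap, in the same order as for CTGF. The log2 fold change with fulvestrant was 1.69 ± 0.07 in pLKO.1 (3.23-fold) and 1.65 ± 0.06 in shp53 cells (3.15-fold), and the difference of the responses was -0.04 ± 0.09. Between the lines it was 0.28 ± 0.06 untreated and 0.24 ± 0.07 with fulvestrant.

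TIMP3, the matrix-bound member of the inhibitors of metalloproteinases, was higher in shp53 cells and higher with fulvestrant. It stood at 5.58, 4.28 and 4.62 CPM in untreated and 8.53, 7.69 and 7.86 CPM in treated pLKO.1 libraries. In shp53 cells it stood at 10.4, 9.92 and 9.89 CPM untreated and at 15.3, 14.4 and 14.3 CPM treated. No 2 groups overlapped, and untreated shp53 cells (10.1 ± 0.307 CPM) lay above treated pLKO.1 cells (8.02 ± 0.441 CPM). The log2 fold change between the lines was 1.06 ± 0.11 untreated (2.08-fold) and 0.87 ± 0.05 with fulvestrant (1.83-fold). With fulvestrant it was 0.73 ± 0.12 in pLKO.1 (1.66-fold) and 0.54 ± 0.04 in shp53 cells (1.45-fold).

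SULF2 encodes a secreted sulfatase that removes 6-O-sulfate groups from heparan sulfate chains and thereby changes which growth factors they hold. Its libraries held 8.46, 8.08 and 9.81 CPM in untreated and 6.0, 4.15 and 5.05 CPM in treated pLKO.1 cells. Untreated shp53 cells held 19.9, 18.9 and 21.3 CPM, above all 9 other libraries, and treated shp53 cells 7.03, 5.51 and 6.62 CPM. The treated groups of the lines overlapped, so that the wide gap between the lines was seen without the drug. Untreated, the lines differed by a log2 fold change of 1.19 ± 0.10 (2.28-fold), and with fulvestrant by 0.33 ± 0.18. The level was 1.73-fold lower with fulvestrant in pLKO.1 cells, a log2 fold change of -0.79 ± 0.17, and 3.14-fold lower in shp53 cells, -1.65 ± 0.12. The difference of the responses, -0.86 ± 0.21, was the largest in size among the 8 genes.

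**Figure D1:**
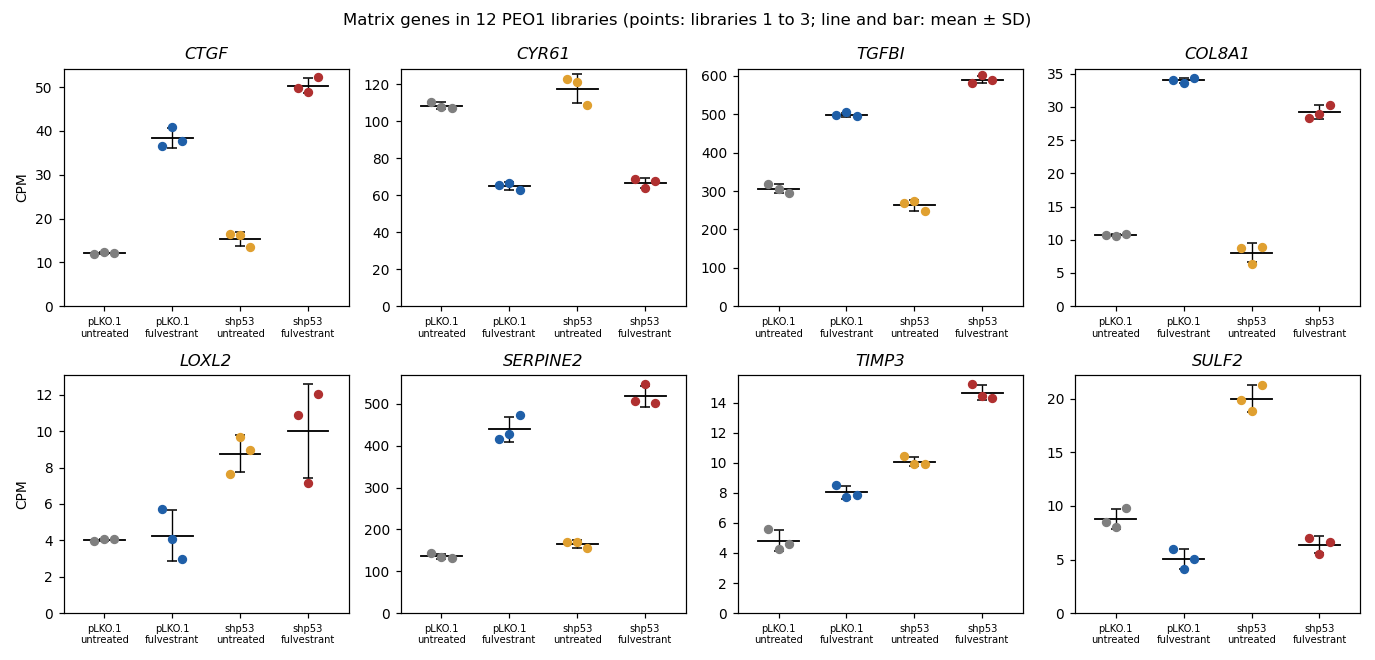
Level of each of the 8 matrix genes in CPM after scaling, 1 panel per gene with its own vertical axis starting at 0; points are libraries, the line and bar the mean and SD of 3 libraries. CTGF, SERPINE2, COL8A1 and TGFBI separate by treatment with higher levels under fulvestrant, CYR61 and SULF2 with lower ones. LOXL2 separates by line, and SULF2 is highest in untreated shp53 cells, at 18.9 to 21.3 CPM.

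The edgeR test, with p-values adjusted by Benjamini-Hochberg over all 15715 entries, called the following shares of the table at 0.05, and the counts of the 8 genes stand beside them as a description. With fulvestrant in pLKO.1 cells it called 27.8% of all entries (13.4% higher, 14.3% lower) and 7 of the 8 genes, 5 higher (CTGF, TGFBI, COL8A1, SERPINE2, TIMP3) and 2 lower (CYR61, SULF2). With fulvestrant in shp53 cells it called 40.9% of all entries (21.3% higher, 19.6% lower) and the same 7 genes in the same directions. Between the untreated lines it called 1.58% of entries (1.02% higher, 0.566% lower) and 3 of the 8 genes, LOXL2, TIMP3 and SULF2, all higher in shp53. Between the treated lines it called 7.02% of entries (4.28% higher, 2.74% lower) and 4 of the 8, CTGF, TGFBI, LOXL2 and TIMP3, all higher in shp53. For the difference of the responses it called 0.0255% of entries and none of the 8 genes (2 at an unadjusted p under 0.05), while DESeq2 called TGFBI. The choice of the genes used these contrasts, so nothing is read from the counts.

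The median log2 fold change of the 8 genes was 0.72 with fulvestrant in pLKO.1 and 0.85 in shp53 cells, against -0.01 over all tested entries in both. Between the lines it was 0.31 untreated and 0.29 with fulvestrant, against -0.01 and 0.00. Among all tested entries, 58 had a larger log2 fold change with fulvestrant in pLKO.1 cells than SERPINE2, 63 than CTGF and 66 than COL8A1. In shp53 cells the corresponding numbers were 80 for COL8A1, 114 for CTGF and 139 for SERPINE2, while 181 entries lay below SULF2. In the untreated comparison of the lines, 50 entries lay above SULF2, 67 above LOXL2 and 77 above TIMP3. The libraries of the compared groups did not overlap for 7 of the 8 genes in untreated cells and 6 in treated cells between the lines, and for 7 in each fulvestrant comparison, against 16.2%, 23.6%, 37.9% and 58.6% of all entries. The genes were chosen by these changes, so their medians, ranks and overlaps are a description and support no test. With fulvestrant the median also pools genes that rose with CYR61 and SULF2, which fell.

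**Figure D2:**
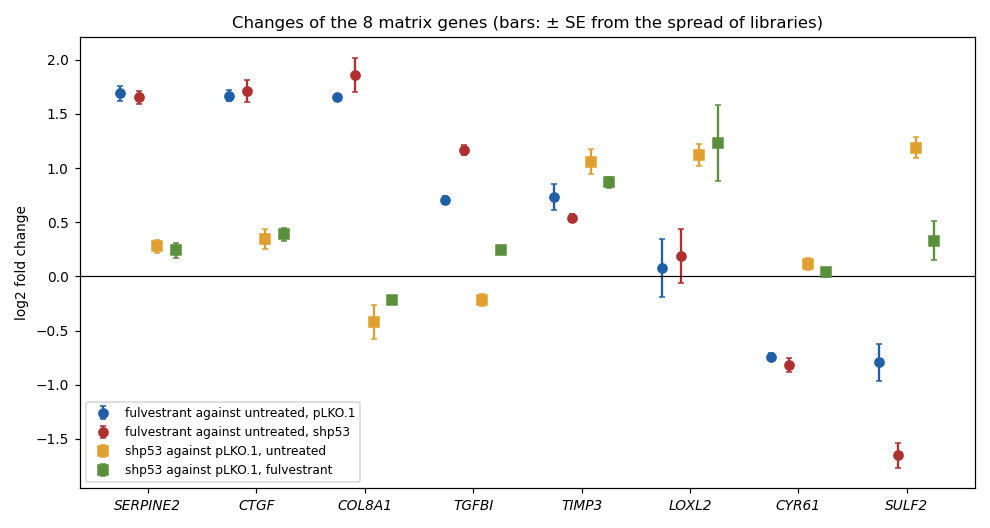
Log2 fold changes of the 8 genes in the 4 pairwise comparisons, with bars of 1 SE from the spread of libraries. The fulvestrant differences of the lines lie close together for CTGF and SERPINE2 (1.65 to 1.71) and apart for TGFBI and SULF2.

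Some of these calls were lost or gained when 1 library was left out, which also leaves fewer libraries for the test. With all 12 libraries the log2 fold change between the untreated lines was 1.12 for LOXL2. Between the treated lines it was 0.24 for TGFBI and 0.39 for CTGF. The call of LOXL2 between the untreated lines was lost without any 1 of the 6 untreated libraries, without pLKO.1 fulvestrant 2 and without shp53 fulvestrant 1, with log2 fold changes of 1.04 to 1.21, and also with the replicate number as a block (1.13), or as a block in the untreated libraries alone (1.11). TGFBI between the treated lines lost its call without pLKO.1 fulvestrant 1 (0.22) or 2 (0.23) and without shp53 fulvestrant 1 (0.26), 2 (0.20) or 3 (0.25), and CTGF lost its call there without shp53 fulvestrant 3 (0.37). Other genes gained a call: CTGF between the untreated lines without shp53 untreated 3 (0.43), and, without pLKO.1 fulvestrant 3, TGFBI (-0.22) and SERPINE2 (0.27) between the untreated and SERPINE2 (0.33) between the treated lines. Every call of the 8 genes with fulvestrant was kept without each library in turn. As the genes were chosen by these changes, kept calls are a description and no support.

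Patterns over the 12 libraries fell into few shapes, given as Pearson correlations of log2 CPM that share the 4 groups and the scaling of each library. CTGF and SERPINE2 correlated at 0.993, TGFBI with them at 0.95 and 0.96, and CYR61 was the mirror image of COL8A1, at -0.99. LOXL2 had its highest correlation with TIMP3, at 0.79, and with the other 6 genes its values lay between -0.10 and 0.42. Among 10172 entries whose mean log2 CPM was 3 or more, TUFT1 (0.993) and CITED2 (0.990) were most like CTGF, VANGL1 (0.992) and CABLES1 (0.991) most like CYR61, and GPRC5A (0.998) and CDH6 (0.996) most like TGFBI. Nearest to SERPINE2 were CLDN16 (0.996) and ABCA1 (0.994), and nearest to COL8A1 were TNFAIP3 and TMEM40 (both 0.986). TIMP3 lay nearest to COL12A1 (0.984) and PPP1R12B (0.980), LOXL2 to EPAS1 (0.974) and CRMP1 (0.965), and SULF2 to CALB2 (0.970) and BDKRB1 (0.969).

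Genes of the same families were set beside the 8, taken by family membership. Of the other CCN genes NOV alone passed the filter, and WISP1, WISP2 and WISP3 did not. NOV stood at 17.8 ± 1.0 CPM in untreated and 16.6 ± 0.537 in treated pLKO.1 cells and at 22.1 ± 1.19 and 23.4 ± 0.848 in shp53 cells (SD, n = 3). It was higher in treated shp53 than in treated pLKO.1 cells (log2 fold change 0.50 ± 0.04, edgeR adjusted p = 0.00176), as CTGF was. Unlike CTGF and CYR61 it did not pass the test with fulvestrant, at -0.10 (adjusted p = 0.33) and 0.09 (adjusted p = 0.33). In untreated cells NOV passed narrowly (0.31, adjusted p = 0.0494), and that call was lost in 19 of 22 alternative settings, without any 1 of the 12 libraries among them (adjusted p up to 0.232 there).

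None of the other 4 lysyl oxidases was called higher in shp53 cells, as LOXL2 was, under either treatment. The untreated call of LOXL2 was itself lost in 10 of 22 settings. LOXL4 was lower in treated shp53 than in treated pLKO.1 cells (log2 fold change -0.42 ± 0.09, edgeR adjusted p = 0.00924), a call lost in 3 of 20 settings: with the GC correction, with that correction and the replicate block (-0.24, adjusted p = 0.252) and in the 6 libraries compared alone. LOXL4, the most abundant, fell with fulvestrant from 340.3 ± 21.4 to 116 ± 11.4 CPM in pLKO.1 cells (log2 fold change -1.56 ± 0.10, edgeR adjusted p = 6.99e-07) and from 351 ± 15.6 to 86.6 ± 4.32 CPM in shp53 cells (-2.02 ± 0.06, adjusted p = 7.74e-08). LOXL3 fell as well, by 0.68 and 1.14 on the log2 scale (adjusted p = 0.0127 and 0.000439), the first call being lost without pLKO.1 untreated 3 (adjusted p = 0.0531). LOX stood at 10.1 to 12.8 CPM and LOXL1 at 5.26 to 8.09 CPM as group means, and neither passed any of the 4 tests. Treated shp53 libraries of LOX (11.8 to 13.6 CPM) still lay above the treated pLKO.1 ones (9.88 to 10.5 CPM). That held for 23.6% of all entries, and the untreated lines overlapped for LOX. Where LOXL2 had overlapping treated and untreated libraries, LOXL3 and LOXL4 had none.

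TIMP3 shared its direction with fulvestrant with TIMP2, which rose from 808 ± 25.5 to 1065 ± 102 CPM in pLKO.1 cells (log2 fold change 0.40 ± 0.09, edgeR adjusted p = 0.00312) and from 768 ± 15.6 to 1117 ± 93.6 CPM in shp53 cells (0.54 ± 0.07, adjusted p = 0.000258). TIMP4, at 0.842 to 1.52 CPM, rose in pLKO.1 cells (0.86, adjusted p = 0.00347), and without the 4 libraries in which GC-rich genes were low that call was lost (adjusted p = 0.0501), while in shp53 cells the value was 0.42 (adjusted p = 0.0996). TIMP1, at 72.2 to 92.1 CPM, passed none of the tests. The difference between the lines that TIMP3 had was called for none of TIMP1, TIMP2 and TIMP4. With fulvestrant SULF1, the second heparan sulfate 6-O-sulfatase, moved against SULF2: it rose from 0.515 ± 0.0826 to 1.18 ± 0.265 CPM in pLKO.1 (log2 fold change 1.18 ± 0.20, edgeR adjusted p = 0.00381) and from 0.818 ± 0.126 to 1.82 ± 0.243 CPM in shp53 cells (1.15 ± 0.16, adjusted p = 0.00166). Between the lines SULF1 went with SULF2: every untreated shp53 library lay above every untreated pLKO.1 library. The same held for SULF1 in treated cells, where the lines overlapped for SULF2. Such separation was seen for 16.2% of all entries untreated and 23.6% treated. SULF1 had only 10 to 49 counts a library. COL8A2, the partner chain of COL8A1, had at most 2 counts in a library, and SERPINE3 at most 1.

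**Figure D3:**
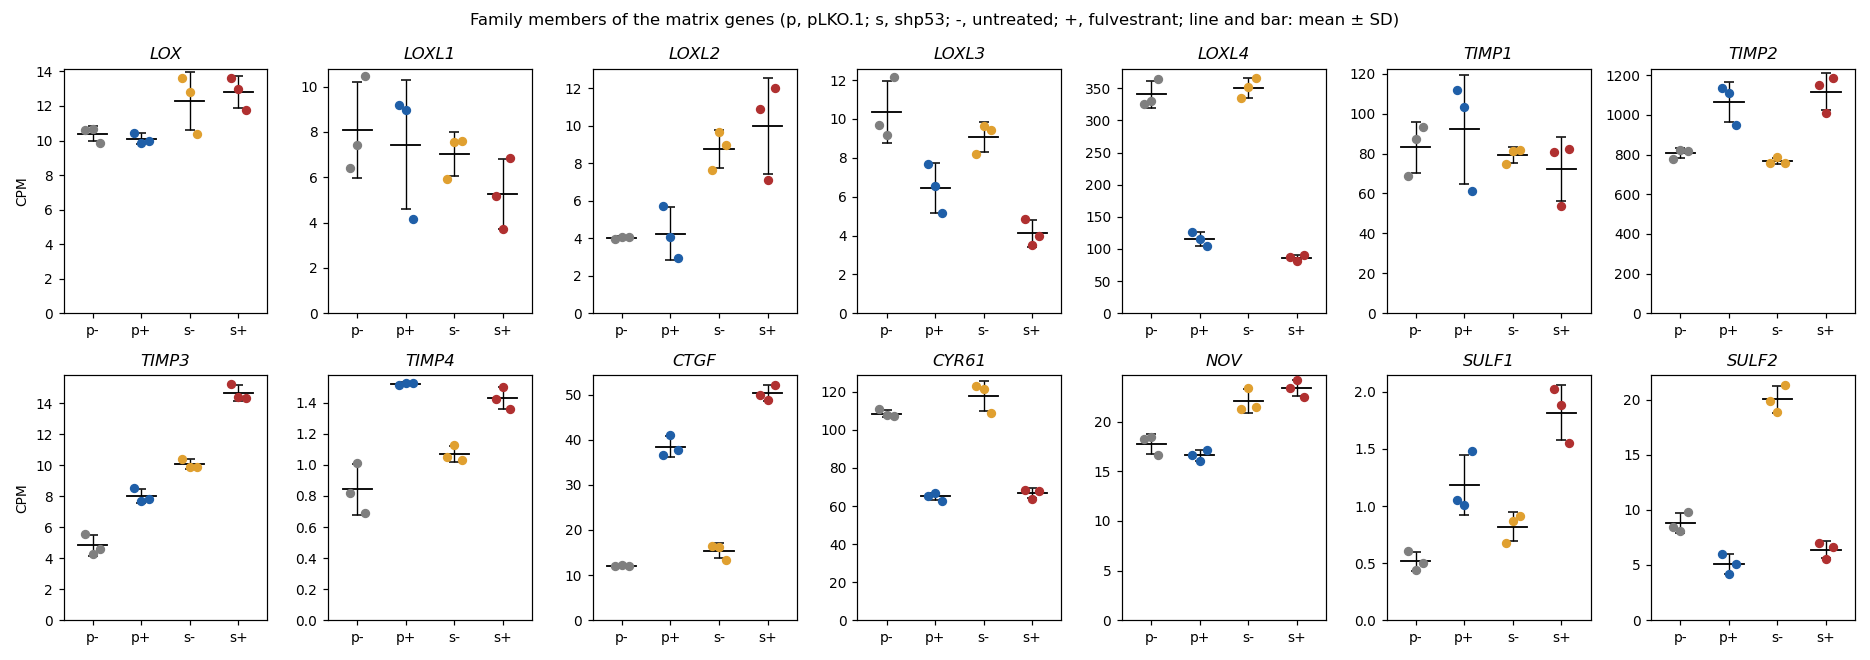
CPM in each library for the family members that passed the filter beside the matrix genes of the same families, each panel with its own axis starting at 0. SULF1 is higher and SULF2 lower with fulvestrant, and LOXL2 is set apart from LOXL3 and LOXL4, which are lower with the drug.

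Around these genes 10 lists of matrix and pathway genes, without the 8, held 270 genes, of which 208 were tested. With fulvestrant edgeR called 75 of the 208 in pLKO.1 cells (50 higher, 25 lower; 36.1% against 27.8% of all entries) and 95 in shp53 cells (63 higher, 32 lower; 45.7% against 40.9%). Their median log2 fold change was 0.11 and 0.08, against -0.01 over all entries. Between the lines 15 were called untreated (8 higher, 7 lower; 7.21% against 1.58%) and 33 treated (18 higher, 15 lower; 15.9% against 7.02%). For the difference of responses none was called by edgeR, with 24 at an unadjusted p under 0.05, and DESeq2 called 5.

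Of 18 tested matricellular genes 6 rose and 1 fell with fulvestrant in each line, 38.9% against 27.8% of all entries in pLKO.1 and 40.9% in shp53 cells. EDIL3, an integrin ligand, rose from 1.70 ± 0.0339 to 6.74 ± 0.564 CPM in pLKO.1 (log2 fold change 1.98 ± 0.07, edgeR adjusted p = 6.99e-07) and from 2.54 ± 0.2 to 13.6 ± 0.21 CPM in shp53 cells (2.42 ± 0.07, adjusted p = 7.74e-08), so its direction was that of CTGF and TGFBI. THBS1, thrombospondin, fell in shp53 cells from 387 ± 3.34 to 239.8 ± 2.89 CPM (-0.69 ± 0.01, adjusted p = 8.67e-07), in the direction of CYR61. In pLKO.1 cells THBS1 was called lower as well, at -0.36 to -0.33 over 20 alternative settings, with the call kept in all. EDIL3 was also higher in treated shp53 than in treated pLKO.1 cells (1.01, adjusted p = 0.000172). Between the untreated lines 4 of the 18 were called higher, or 22.2% against 1.58% of all entries. Among them were EFEMP1 at 0.42 (adjusted p = 0.00109) and SPARC at 0.30 (adjusted p = 0.0445). SPARC was named after its values were seen and was not recomputed in other settings. Of the other 2 the call of NOV (0.31, adjusted p = 0.0494) was lost in 19 of 22 settings and that of EDIL3 (0.58, adjusted p = 0.0279) in 14 of 22 (adjusted p up to 0.245), among them each single library left out except pLKO.1 fulvestrant 1 and 3 and shp53 untreated 2.

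Of 27 targets of YAP and TEAD other than CTGF and CYR61, 11 rose and 5 fell in pLKO.1 (59.3% against 27.8% of all entries). In shp53 cells 13 rose and 5 fell (66.7% against 40.9%). AXL, a receptor kinase, fell by 1.27 and 1.92 on the log2 scale (edgeR adjusted p = 1.73e-05 and 5.8e-07), as CYR61 was lower, and RBMS3 rose by 1.15 and 1.66 (adjusted p = 1.48e-05 and 5.94e-07), as CTGF was higher. Between the lines 3 of the 27 were lower in untreated shp53 cells and none higher, or 11.1% against 1.58% of all entries. In treated cells 3 were higher and 2 lower, or 18.5% against 7.02%. Of 28 genes of TGF-beta signalling 5 rose and 3 fell with fulvestrant in pLKO.1 (28.6%, near the 27.8% of all entries). In shp53 cells 9 rose and 5 fell, 14 in all (50% against 40.9%). LTBP1, which stores latent TGF-beta in the matrix, was higher in untreated shp53 cells (0.65, adjusted p = 0.000806). It was also called higher in treated shp53 cells, at 0.31 to 0.45 over 20 alternative settings, with the call lost in 6. The coreceptor TGFBR3 was lower in shp53 cells, at -0.58 untreated (adjusted p = 0.00546) and -0.93 treated (adjusted p = 0.000195).

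Among 22 tested metalloproteinases and ADAMTS enzymes, the class that TIMP3 inhibits, 6 rose and 3 fell in pLKO.1 (40.9% against 27.8% of all entries) and 7 rose and 3 fell in shp53 cells (45.5% against 40.9%). ADAMTS9 rose by 1.39 and 1.21 on the log2 scale (edgeR adjusted p = 3.89e-07 and 3.84e-07) and ADAMTS1 by 1.08 and 1.86 (adjusted p = 7.27e-05 and 7.95e-07). Of 19 tested integrins, the receptors of the CCN proteins and of TGFBI, 4 rose and 3 fell in pLKO.1 cells. In shp53 cells 5 rose and 2 fell. The share was 36.8% in each line, against 27.8% of all entries in pLKO.1 and 40.9% in shp53 cells. ITGB8, part of a receptor that frees latent TGF-beta, rose by 1.39 and 1.62 (adjusted p = 4.18e-07 and 8.59e-08). The counts were 4 higher and 4 lower, then 4 and 5, of 19 cross-linking genes, 1 and 1, then 2 and 1, of 12 collagens, and 7 and 1, then 8 and 2, of 22 basement membrane genes, in pLKO.1 and then in shp53 cells. These are 42.1% and 47.4% of the cross-linking genes, 16.7% and 25% of the 12 collagens, and 36.4% and 45.5% of the basement membrane genes. The shares of all entries were 27.8% and 40.9%, above those of the collagens. For 17 genes of the plasminogen system, in which SERPINE2 acts, the counts were 3 and 2, then 6 and 3 (29.4% and 52.9%). For 26 genes of heparan sulfate, the substrate of SULF2, they were 4 and 3, then 4 and 6 (26.9% and 38.5%). The heparan sulfate shares lay just below the 27.8% and 40.9% of all entries, and the plasminogen share in pLKO.1 cells just above.

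**Figure D4:**
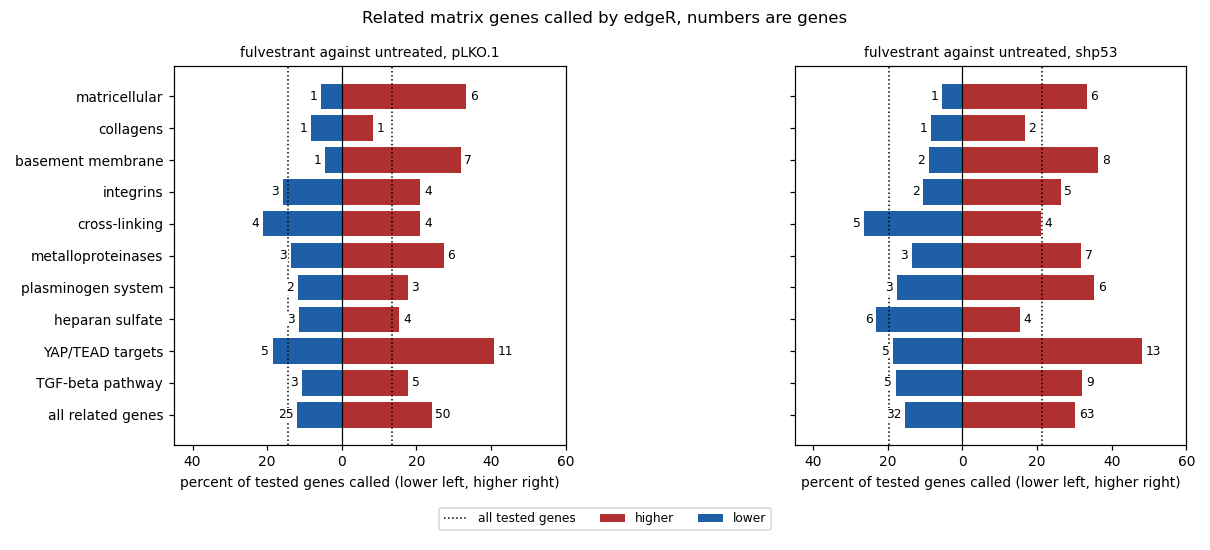
Percent of tested genes of each list called higher (right) or lower (left) with fulvestrant in each line, with the number of genes at the bar and dotted lines for all tested entries. YAP and TEAD targets have the longest bars to the right, 11 of 27 genes in pLKO.1 and 13 of 27 in shp53 cells.

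Markers of other cells and signs of library quality were measured beside the matrix genes. The 13 fibroblast markers summed to 294 to 313 and 310 to 331 CPM in untreated pLKO.1 and shp53 libraries and to 128 to 193 and 119 to 168 CPM in treated ones, mostly through THY1 and FBLN1, so the sum was lower where CTGF, SERPINE2, TGFBI and COL8A1 were higher. Of its 5 tested genes, named here after their values were seen, THY1 fell with fulvestrant in pLKO.1 and in shp53 cells (-1.24 and -1.35 on the log2 scale, edgeR adjusted p = 1.49e-05 and 3.34e-06), and FBLN1 and COL1A1 passed neither test. The other 2 rose in both lines, FAP by 0.58 and 1.14 (adjusted p = 0.00226 and 1.72e-05) and ACTA2, from means of 1.65 and 1.69 CPM, by 0.85 and 0.92 (adjusted p = 0.0197 and 0.00948). The 11 endothelial and mesothelial markers in the table summed to 27.6 to 57.5 CPM over all libraries. Within that list CALB2, the gene most like SULF2 in pattern, had means of 13.7 and 25.8 CPM in untreated pLKO.1 and shp53 cells and of 8.02 and 11.7 CPM in treated ones. The 12 leukocyte markers summed to 57.8 to 79.9 CPM, of which CD68 made up 52.0 to 77.3. The 13 transcripts of the mitochondrial genome summed to 1521 to 1815 CPM in untreated and 1851 to 2096 in treated pLKO.1 libraries and to 1699 to 2152 and 2161 to 2564 in shp53 libraries. These sums were higher with fulvestrant in each line and higher in treated shp53 than in treated pLKO.1 libraries, while the untreated lines overlapped. Of the 13, edgeR called 0 between the untreated lines (1.58% of all entries) and 1 higher between the treated lines (7.69% against 7.02%). With fulvestrant it called 2 higher and 1 lower in pLKO.1 (23.1% against 27.8%) and 7 higher in shp53 cells (53.8% against 40.9%). The part of these lists in the differences of the 8 genes was not tested.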

How the data were processed

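RNA from 12 PEO1 libraries was counted by the authors. The deposited values are RSEM expected counts per gene, which are whole and not normalized, per the file headers and values. RSEM 1.3.3, Bowtie2, cutadapt, MultiQC and the GRCh37/hg19 build are named in the submitters' processing notes, which do not state whether strand was used. Reads shared by similar transcripts are divided between them by RSEM. A further 6 columns matched no sample and were not used.

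Counts were tested in R 4.3.3 with edgeR 4.0.16: TMM scaling (factors 0.984 to 1.06), filterByExpr, 1 mean per group over all 12 libraries, the robust quasi-likelihood test and Benjamini-Hochberg adjustment over 15715 entries, with a threshold of 0.05. Levels are CPM after TMM, and SEs come from the spread of log2 CPM (prior count 2). Values per kilobase divide CPM by the longest GENCODE transcript of each entry, which may not be the transcript that these cells express. DESeq2 1.42.0 served as an alternative. The test was checked on simulated counts. The 8 genes are named whatever their values, with their family members, the 2 most similar entries each, and, per list and comparison, up to 2 called genes of largest change with mean log2 CPM of at least 1, of which part is printed. Some genes are not reported here. Genes, lists and tests were chosen with earlier results of these data known. Libraries of equal number deviated together in the untreated groups (correlations 0.87, 0.18 and 0.81), while in each of the other pairwise comparisons 2 of the 3 correlations were negative and the numbers were not taken as pairs. This pairing comes from the data alone.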

Additional observations from a re-analysis of the deposited data

How the results depend on the processing

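The 22 alternative settings all used the same RSEM counts. They were DESeq2 as another test, other size factors, no filter on low counts, fits to the 6 libraries compared, each library left out, a replicate block, and a correction for transcript GC content. Of these, the block in untreated libraries alone, with and without the GC correction, and leaving out the 4 libraries in which GC-rich genes were low were chosen after seeing the data. No called result reversed. Values that passed no test changed sign for LOXL2 with fulvestrant in pLKO.1 cells (-0.18 to 0.25), for CYR61 between the treated lines (-0.02 to 0.06) and for the difference of responses of LOXL2 (-0.07 to 0.36), CTGF (-0.04 to 0.11) and SERPINE2 (-0.11 to 0.05). With fulvestrant all 14 calls of the 8 genes were kept in all 20 settings. The 8 genes were chosen by these same changes, so calls kept, lost or gained are a description and support no test. Between the lines TIMP3 kept its calls throughout, SULF2 its untreated call, CTGF lost its treated call in 2 of 20 settings (0.33 with the 6 libraries compared alone), TGFBI in 7 of 20, LOXL2 its untreated call in 10 of 22 and its treated call in 1 of 20 (1.17, the 6 libraries alone). With the GC correction LOXL2 gained a call with fulvestrant in shp53 cells (0.44), as SULF2 (-0.82) and TGFBI (0.47) did for the difference of responses. Between the untreated lines calls were gained by SERPINE2 in 6, TGFBI in 4, CTGF in 3 and COL8A1 in 2 of 22 settings, and between the treated lines by SERPINE2 in 4 and SULF2 in 1 of 20.

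Between the untreated lines, all genes called (249) numbered 126 to 319 with single libraries left out, 145 with the replicate block, 557 with the GC correction, 401 with both, 672 with the correction and the untreated block, 219 with that block alone and 425 without the 4 libraries. The related genes (15) numbered 8 to 18, 8, 28, 25, 32, 14 and 22. They were 8 or 9 without pLKO.1 untreated 2 or 3 or any shp53 untreated library, and the whole count then lay at 126 to 151.

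Between the treated lines all genes called (1103) numbered 456 to 2270 with single libraries left out, 229 with the 6 libraries alone, 620 with the replicate block, 2384 with the GC correction, 1909 with both and 3003 without the 4 libraries (1307 higher, 1696 lower). The related genes (33) numbered 18 to 62, 6, 27, 67, 59 and 80. The highest values, 2270 and 62, came without pLKO.1 fulvestrant 3. Without any other treated library the whole count was 456 to 673, and the related count was 18 to 20 without pLKO.1 fulvestrant 2, shp53 fulvestrant 1 or shp53 fulvestrant 3.

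With fulvestrant, the related genes in pLKO.1 cells (75) numbered 114 with the GC correction, and the other settings left both fulvestrant counts within 1.5 times. For the difference of responses, genes called (4) numbered 0 to 7 with single libraries left out (7 without pLKO.1 fulvestrant 3, 1 without shp53 untreated 3, 0 without each other library), 45 with DESeq2, 0 without the filter, 0 with the replicate block, 141 with the GC correction, 49 with both and 62 without the 4 libraries. The related genes (0) numbered 0 to 2, 5 with DESeq2, 9 with the GC correction, 3 with both and 5 without the 4 libraries. Of 107 other named values, 2162 recomputed values kept direction and call 1968 times and lost the call 194 times. The causes were not tested. With 70 to 256 counts LOXL2 has the least depth among the 8 genes.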
